A study of Homo sapiens with 12 samples.

Results

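The 46 genes described here belong to the unfolded protein response of the endoplasmic reticulum (ER) and to the amino acid stress response run by the transcription factor ATF4. They were taken by symbol from a list of pathway members, out of 58288 genes listed in the deposited expression table. The list was chosen with earlier results of these data known. Shares called among the 46 genes are therefore descriptions and not independent evidence. By role they are 14 ER chaperones and folding enzymes, 3 genes of ER-associated degradation, 4 ER stress sensors and XBP1, 9 genes for ATF4 and stress regulators, 6 enzymes of serine, one-carbon and asparagine synthesis, 3 amino acid transporters and 7 tRNA synthetases. All 46 passed the filter on low values and were among the 15973 genes tested.

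RNA-Seq was performed on FaDu cells, a human head and neck squamous cell carcinoma line, to examine how loss of STING (listed as *TMEM173*) and ionizing radiation alter transcription. STING WT cells carried Cas9 and a non-targeting gRNA, and STING KO cells carried Cas9 and a gRNA against STING. Each line was either left unirradiated (0 Gy) or given 2 Gy a day for 4 fractions, and each of the 4 groups holds 3 libraries. All cells were grown in the same serum-containing medium, and no drug was used to induce ER stress or amino acid starvation. Because each genotype is a single line, the effect of STING and other differences between these lines cannot be told apart. The time between the last fraction and harvest is not given in the sources used here. The labels do not say whether the 3 libraries of a group came from separate cultures, so the p-values measure only the spread between these libraries.

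Proteins of the secretory pathway fold in the ER with the help of chaperones such as HSPA5 (BiP). When unfolded proteins accumulate, the sensors ATF6, ERN1 (IRE1) and EIF2AK3 (PERK) switch on chaperone genes through ATF6 and spliced XBP1, and phosphorylation of eIF2 by PERK raises translation of ATF4. Other eIF2 kinases respond to amino acid shortage, double-stranded RNA or lack of heme, so ATF4 and its targets, among them amino acid enzymes, transporters and tRNA synthetases, also mark the integrated stress response.

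Values are TPM, a transcript abundance scaled for gene length that sums to the same total in each library. TPM keeps no read depth, so the counting error of a value cannot be given. Changes are differences in log2(TPM + 1) with standard errors from limma over all 12 libraries, and a gene was called at a Benjamini-Hochberg adjusted p under 0.05 over all genes tested. The libraries were similar in breadth, with 14860 to 15292 genes at a TPM of at least 1. *TMEM173* was lower in KO cells both without radiation (mean 5.81 against 22.1 TPM, log2 change -1.77 ± 0.11, adjusted p = 1.16e-05) and with it (6.95 against 23.1 TPM, log2 change -1.60 ± 0.11, adjusted p = 2.00e-05). Epithelial genes such as *EPCAM* (mean 258.2 to 292.4 TPM per group) and *KRT17* were abundant. *EPCAM* was called higher after radiation in both lines. *KRT17* was called lower in irradiated KO than in irradiated WT cells, and *KRT14* and *KRT17* were called in opposite directions between unirradiated KO and WT cells. The epithelial genes *KRT5*, *TP63* and *CDH1* were not called in any comparison. In contrast, *PTPRC* and *CD3E* of leukocytes and *PECAM1* of endothelium were below 0.1 TPM in every library. Of the other markers of stroma and endothelium, *COL3A1* was at most 0.115 TPM, while *COL1A1* measured 6.34 to 9.24 TPM and *VWF* 2.60 to 4.49 TPM. *VWF* was higher in the irradiated libraries of both lines without overlap but was not called (0.20 ± 0.08 in WT, adjusted p = 0.228, and 0.28 ± 0.08 in KO, adjusted p = 0.0870), and its part in any result was not tested. In a bulk measurement, fewer cells of a type and less RNA per cell cannot be told apart.

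Most of the 46 genes were expressed at high levels in all groups. Their median level over the libraries was 137.2 TPM, against 15.6 TPM for all genes tested, and 29 of the 46 had a mean of at least 100 TPM. The most abundant were *SLC7A5*, *HSP90B1*, *CALR* and *CANX*, and the least abundant were *VLDLR*, *ERN1*, *CHAC1* and *DNAJB9*. The median spread between libraries of a group was 0.08 on the log2 scale, against 0.15 for all genes tested. Small differences are therefore resolved better for these genes than for a typical gene, which bears on every count below.

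The ER chaperones and folding enzymes changed little with radiation. No ER gene passed the test in STING WT cells, where 3.74% of all genes tested were called, and 2 of 21 (*DNAJB11* and *SEL1L*) rose in STING KO cells, where 2.00% of all genes tested were called as higher and 1.70% as lower. The median change of the 21 ER genes was 0.05 in WT and 0.06 in KO cells, against 0.02 for all genes in both lines. For 18 of the 21 in WT cells and 17 of the 21 in KO cells, the 95% interval lay within 0.5 of no change on the log2 scale. Counted by overlap, 5 of the 21 (23.8%) separated irradiated from unirradiated WT libraries, against 24.8% of all genes tested. In KO cells 8 of the 21 (38.1%) did, against 24.3%, and all of these separations were upward in both lines.

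*HSPA5*, the ER chaperone most widely used as a reporter of the unfolded protein response, lies at chr9:125234853-125241330 (GRCh38, minus strand). It measured 357.2, 380.4 and 378.4 TPM in the unirradiated WT libraries, 391.4, 390.1 and 390.4 TPM in the irradiated WT libraries, 349.0, 353.2 and 347.6 TPM in the unirradiated KO libraries and 367.8, 370.0 and 363.2 TPM in the irradiated KO libraries. The irradiated libraries were above the unirradiated ones in both lines without overlap, and the KO libraries were below the WT libraries at the same dose. These differences were small. The radiation change was 0.07 ± 0.03 in each line (adjusted p = 0.303 in WT and 0.323 in KO), and the KO change was -0.09 ± 0.03 both without radiation (adjusted p = 0.275) and with it (adjusted p = 0.195).

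Promoters of these genes were searched for the ER stress element, the site used by ATF6, written as CCAAT and CCACG with 9 free bases between them, on either strand. The windows run from 250 bases before to 50 bases after the RefSeq start sites (GRCh38.p14). Of the 46 genes, 43 matched an entry, and *PDIA3*, *PSPH* and *SHMT2* did not. The exact element was found in 7 of the 43 genes (16.3%), of which 6 are ER chaperones or folding enzymes and the other is *XBP1*, against 0.0769% of all 35116 windows and 0.0916% of all genes with a window. The sites of 4 abundant chaperones are shown, as examples of the genes that the unfolded protein response is known to switch on, with the element in capitals and 10 flanking bases on each side, each read in the direction of the element. *HSP90B1* has another such element on the opposite strand, which is not printed.
HSPA5, chr9:125241381-125241419, minus strand: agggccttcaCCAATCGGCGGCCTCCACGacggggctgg
HSP90B1, chr12:103930206-103930244, plus strand: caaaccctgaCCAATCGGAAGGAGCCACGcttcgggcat
CANX, chr5:179698768-179698806, plus strand: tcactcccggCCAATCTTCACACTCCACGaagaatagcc
PDIA6, chr2:10812843-10812881, minus strand: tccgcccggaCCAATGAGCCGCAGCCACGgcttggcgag

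None of the 7 genes with this element was called in any comparison. *HSP90B1* (GRP94, the ER paralog of the cytosolic HSP90) ranged from 1072 to 1235 TPM over all 12 libraries, with a radiation change of 0.04 ± 0.05 in WT and 0.03 ± 0.05 in KO cells. *PDIA6*, a disulfide isomerase, ranged from 475.2 to 505.5 TPM and had one of the lowest spreads of all genes tested (percentile 0.225). *XBP1*, the transcription factor spliced by IRE1, ranged from 71.9 to 108.8 TPM, and a gene-level TPM does not separate its spliced from its unspliced form. A further element, TGACGTGG, which on its other strand begins with CCACG and can overlap the element above, was found only in *HYOU1* among the 43 genes and in 0.729% of all windows.

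*DNAJB11* (ERdj3), a co-chaperone of BiP at chr3:186567403-186585800 (plus strand), had the largest radiation change among the ER chaperones in each line. Its level was 114.8, 111.6 and 112.6 TPM in unirradiated WT, 158.1, 135.4 and 133.0 TPM in irradiated WT, 107.9, 115.4 and 94.1 TPM in unirradiated KO and 140.6, 142.5 and 135.7 TPM in irradiated KO libraries. Every irradiated library was above every unirradiated one. The change was 0.32 ± 0.08 in WT cells (adjusted p = 0.0551, not called) and 0.40 ± 0.08 in KO cells (adjusted p = 0.0240). The radiation changes of the lines differed by 0.08 (95% interval -0.18 to 0.33, adjusted p = 0.939). The call in KO cells was lost without unirradiated KO library 1 or 3 and without any one of the irradiated KO libraries, with adjusted p between 0.0171 and 0.0903 over the alternatives. *DNAJB11* overlaps *TBCCD1* on the opposite strand, and whether reads were assigned by strand is not stated.

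The other 12 chaperones and folding enzymes beside *HSPA5* and *DNAJB11* had radiation changes from -0.22 (*HYOU1*, a large ER chaperone of the HSP70 family) to 0.19 (*DNAJB9*, a BiP co-chaperone) in WT cells and from -0.18 (*SDF2L1*) to 0.30 (*MANF*, a secreted ER stress factor) in KO cells. *MANF* (94.8 to 149.8 TPM), *SDF2L1* (23.4 to 36.8 TPM) and *HYOU1* (102.6 to 171.6 TPM) varied most between libraries of a group. The lectin chaperones *CALR* (762.5 to 846.2 TPM) and *CANX* (760.5 to 922.3 TPM), the disulfide isomerase *PDIA3* (356.3 to 433.8 TPM) and *DNAJC3* (39.0 to 43.2 TPM), an inhibitor of PERK, were not called in any comparison. *PDIA4*, another disulfide isomerase, was below WT in every irradiated KO library, at 254.5 to 276.6 against 287.9 to 292.5 TPM, a change of -0.14 ± 0.04 that was not called (adjusted p = 0.0874). *CRELD2*, a disulfide isomerase-like stress gene, had a KO change of 0.11 ± 0.04 without radiation (adjusted p = 0.305).

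Among the genes of ER-associated degradation, *SEL1L*, the adaptor of the HRD1 ubiquitin ligase, measured 122.2, 125.0 and 130.4 TPM in unirradiated WT, 131.2, 133.4 and 126.2 TPM in irradiated WT, 113.8, 115.3 and 113.0 TPM in unirradiated KO and 124.1, 131.1 and 137.6 TPM in irradiated KO libraries. The unirradiated KO libraries were below all the others. Radiation raised it by 0.20 ± 0.05 in KO cells (adjusted p = 0.0489), a call lost in 17 of 20 alternative settings, among them leaving out any library other than irradiated KO library 1. The change in WT cells was 0.05 ± 0.05 (adjusted p = 0.651). *EDEM1*, a mannosidase-like protein that directs glycoproteins to degradation, was between 31.6 and 37.4 TPM throughout and did not overlap between doses in either line, with changes of 0.10 ± 0.04 in each (adjusted p = 0.235 in WT and 0.264 in KO).

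*HERPUD1*, a stress-induced component of the same ligase complex, was the most variable ER gene. It measured 22.7, 49.1 and 24.8 TPM in unirradiated WT, 20.9, 24.5 and 24.5 TPM in irradiated WT, 22.3, 32.6 and 24.2 TPM in unirradiated KO and 46.5, 34.8 and 40.1 TPM in irradiated KO libraries. The irradiated KO libraries were above the unirradiated KO and the irradiated WT libraries, while 1 unirradiated WT library was higher than any of them. With a standard error of 0.25, neither its radiation change in KO cells (0.61, adjusted p = 0.236) nor its KO change in irradiated cells (0.76, adjusted p = 0.142) passed the test. A fit to the irradiated libraries alone called the KO change.

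The sensors were measured at lower levels. *ATF6* measured 31.5, 31.9 and 31.9 TPM in unirradiated WT, 34.3, 35.9 and 32.9 TPM in irradiated WT, 33.4, 33.7 and 34.1 TPM in unirradiated KO and 33.5, 33.9 and 35.6 TPM in irradiated KO libraries. The unirradiated WT libraries were the lowest, and the radiation change in WT cells of 0.11 ± 0.05 was not called (adjusted p = 0.247). *ERN1* (4.25 to 6.80 TPM) and *EIF2AK3* (8.54 to 10.7 TPM) were not called in any comparison.

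**Figure D1:**
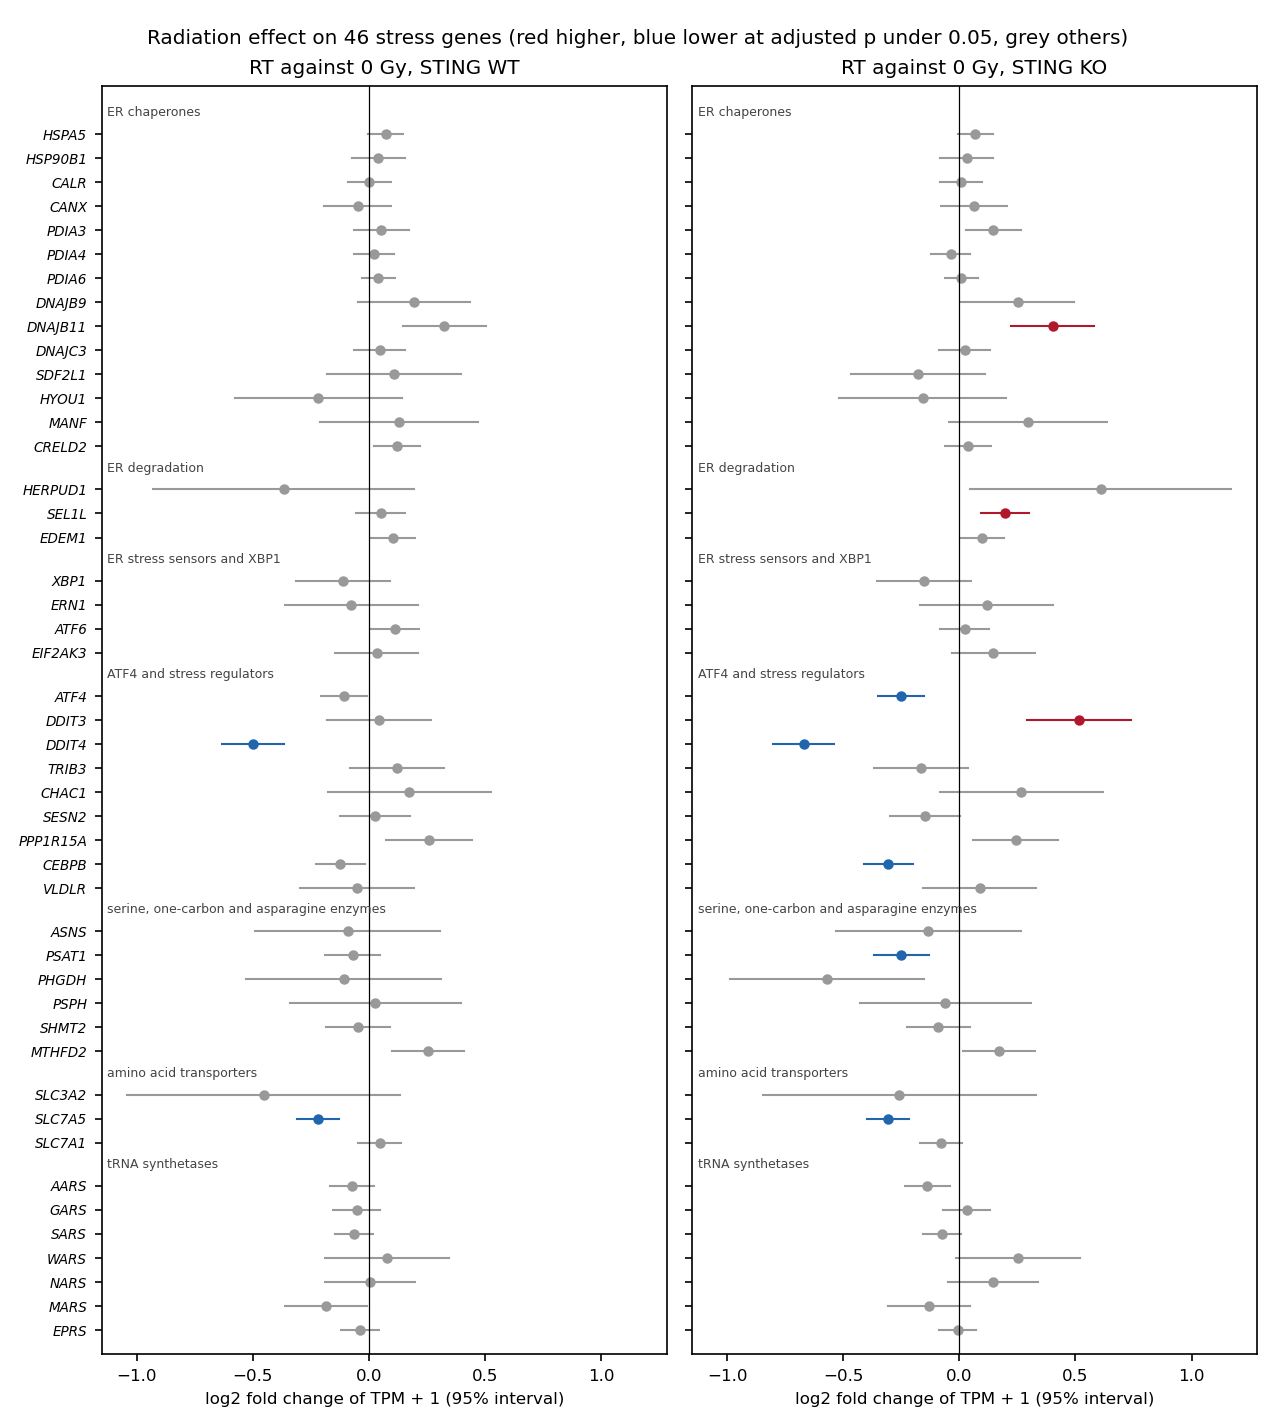
Log2 fold change of TPM + 1 after radiation for each of the 46 genes by role, in STING WT (left) and STING KO cells (right), as the limma estimate (point) with its 95% interval (line); red and blue mark genes called higher or lower. Most ER genes sit near 0, and *DDIT4* is the farthest below 0 in both lines, at -0.50 and -0.67.

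Most of the calls in the ATF4 group after radiation were downward. Of the 18 genes for ATF4, stress regulators, amino acid enzymes and transporters, 2 (11.1%) were called in WT cells. Both fell (*DDIT4* and *SLC7A5*). In WT cells 3.74% of all genes tested were called, and 6.24% of genes with a mean of at least 100 TPM. In KO cells 5 fell (*DDIT4*, *SLC7A5*, *CEBPB*, *ATF4* and *PSAT1*) and 1 rose (*DDIT3*), so that 6 of 18 (33.3%) were called, against 3.69% of all genes tested and 6.24% of genes with a mean of at least 100 TPM. Because the genes were chosen with earlier results of these data known, these shares are a description and not a test. The median change of the 18 genes was -0.05 in WT and -0.14 in KO cells. In a fit to only the 6 KO libraries, *DDIT4* was the single call among all 46 genes, and 1.22% of all genes tested were called.

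*DDIT4* (REDD1), an inhibitor of mTORC1 induced by several stresses, fell in both lines. It lies at chr10:72273920-72276036 (plus strand). Its level was 282.6, 289.1 and 300.6 TPM in unirradiated WT, 200.1, 193.4 and 223.7 TPM in irradiated WT, 281.6, 273.4 and 302.3 TPM in unirradiated KO and 182.5, 180.9 and 173.7 TPM in irradiated KO libraries. Irradiated and unirradiated libraries did not overlap in either line. The change was -0.50 ± 0.06 in WT cells (adjusted p = 0.00157) and -0.67 ± 0.06 in KO cells (adjusted p = 3.51e-04), and both calls held under all 20 alternatives. The lines differed by -0.17 (95% interval -0.36 to 0.02, adjusted p = 0.762). It overlaps the antisense transcript *DDIT4-AS1*.

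*SLC7A5* (LAT1), the importer of large neutral amino acids and the most abundant of the 46 genes, also fell in both lines. It measured 1360, 1337 and 1413 TPM in unirradiated WT, 1174, 1176 and 1182 TPM in irradiated WT, 1398, 1345 and 1353 TPM in unirradiated KO and 1140, 1129 and 1044 TPM in irradiated KO libraries. Every irradiated library was below every unirradiated one. The change was -0.22 ± 0.04 in WT cells (adjusted p = 0.0173) and -0.31 ± 0.04 in KO cells (adjusted p = 0.00296). The WT call of *SLC7A5* was lost in 7 of 20 alternatives. These were no filter on low values, no trend in eBayes, only the libraries compared, and leaving out unirradiated WT library 3 or any one of the irradiated WT libraries. Its heterodimer partner *SLC3A2* (CD98) was too variable to follow, at 455.8 to 921.2 TPM over the 12 libraries and with a standard error of 0.26.

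*ATF4* itself, at chr22:39519695-39522685 (plus strand), measured 582.1, 568.8 and 616.8 TPM in unirradiated WT, 535.0, 564.2 and 538.4 TPM in irradiated WT, 623.6, 610.8 and 621.6 TPM in unirradiated KO and 498.6, 545.0 and 518.6 TPM in irradiated KO libraries. It was lower after radiation in both lines without overlap. The change was -0.25 ± 0.04 in KO cells (adjusted p = 0.0155) and -0.11 ± 0.04 in WT cells (adjusted p = 0.226, not called), and the difference between the lines was -0.14 (95% interval -0.28 to 0.0004, adjusted p = 0.752). The KO call was lost without unirradiated KO library 1 or 3 or irradiated KO library 1. ATF4 is controlled mainly through translation, which a transcript level does not measure.

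*CEBPB*, a transcription factor that can dimerize with ATF4, measured 124.0, 127.5 and 123.0 TPM in unirradiated WT, 116.4, 112.7 and 114.3 TPM in irradiated WT, 144.0, 137.5 and 141.4 TPM in unirradiated KO and 120.2, 115.2 and 106.6 TPM in irradiated KO libraries. The unirradiated KO libraries were the highest, and the irradiated libraries of both lines lay together below the unirradiated ones. It fell with radiation in KO cells (-0.31 ± 0.05, adjusted p = 0.00708), and the change of -0.12 ± 0.05 in WT cells was not called (adjusted p = 0.203).

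*PSAT1*, an aminotransferase of serine synthesis, measured 256.2, 275.4 and 281.6 TPM in unirradiated WT, 251.5, 263.3 and 259.6 TPM in irradiated WT, 266.9, 257.0 and 258.1 TPM in unirradiated KO and 235.7, 213.8 and 208.9 TPM in irradiated KO libraries. The irradiated KO libraries lay below all the others. It was called lower after radiation in KO cells (-0.25 ± 0.05, adjusted p = 0.0315) and lower in KO than in WT cells after radiation (-0.24 ± 0.05, adjusted p = 0.0391), both comparisons resting on the same irradiated KO libraries. The calls were lost in 9 and 14 of 20 alternatives. The first was lost without any one of the unirradiated KO libraries or irradiated KO library 2 or 3, and the second also without any one of the irradiated WT libraries or unirradiated WT library 2. *PHGDH*, the first enzyme of the same pathway, had irradiated KO values of 253.0 to 314.3 TPM against 375.1 to 487.5 TPM in unirradiated KO cells, a change of -0.57 ± 0.19 that was not called (adjusted p = 0.136).

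*DDIT3* (CHOP), the transcription factor linked to death after prolonged ER stress, went the other way in KO cells. It measured 10.7, 10.7 and 9.44 TPM in unirradiated WT, 10.8, 10.4 and 10.5 TPM in irradiated WT, 7.75, 8.48 and 6.77 TPM in unirradiated KO and 13.1, 10.8 and 10.3 TPM in irradiated KO libraries. The unirradiated KO libraries were the lowest, and the irradiated KO libraries overlapped both WT groups or lay above them. Radiation raised *DDIT3* by 0.51 ± 0.10 in KO cells (adjusted p = 0.0218), and the WT change was 0.04 ± 0.10 (adjusted p = 0.885). The difference between these changes was 0.47 (95% interval 0.16 to 0.79, adjusted p = 0.674), so that a difference between the lines was not shown. Without unirradiated KO library 1 or 3, or irradiated KO library 1, the KO call was lost. *DDIT3* overlaps *MARS* and *MBD6* on the opposite strand, and *MARS* was present at 133.8 to 181.1 TPM. The radiation change of *MARS* in KO cells was -0.13 ± 0.08 (adjusted p = 0.431), and the part of *MARS* reads in the *DDIT3* values was not tested.

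In the ATF4 group, *PPP1R15A* and *MTHFD2* had values on one side in both lines without passing the test. *PPP1R15A* (GADD34), the phosphatase subunit that restores translation after eIF2 phosphorylation, had radiation changes of 0.26 ± 0.08 in WT (adjusted p = 0.134) and 0.24 ± 0.08 in KO cells (adjusted p = 0.150). *MTHFD2*, a mitochondrial one-carbon enzyme, had changes of 0.25 ± 0.07 (adjusted p = 0.0797) and 0.17 ± 0.07 (adjusted p = 0.224). In both genes the irradiated libraries lay above the unirradiated ones without overlap. *ASNS*, the asparagine synthetase often used as a reporter of ATF4, ranged from 81.0 to 142.5 TPM, with radiation changes of -0.09 ± 0.18 in WT (adjusted p = 0.848) and -0.13 ± 0.18 in KO cells (adjusted p = 0.760). In the irradiated KO group its libraries measured 142.1, 97.3 and 81.0 TPM, a spread nearly as wide as that over all 12 libraries.

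Of the remaining genes of the group, *CHAC1*, a glutathione-degrading enzyme downstream of ATF4, measured 4.91 to 6.47 TPM in unirradiated WT and 3.42 to 5.25 TPM in unirradiated KO libraries, a KO change of -0.39 ± 0.16 that was not called (adjusted p = 0.294). *SESN2*, an inhibitor of mTORC1, measured 14.7 to 16.3 TPM in irradiated WT and 13.1 to 13.5 TPM in irradiated KO libraries, which did not overlap, with a change of -0.19 ± 0.07 (adjusted p = 0.178). *VLDLR*, a lipoprotein receptor induced by ATF4, stayed between 3.27 and 4.66 TPM, *PSPH*, the last enzyme of serine synthesis, between 38.8 and 59.3 TPM, and *SHMT2*, which converts serine to glycine in mitochondria, between 253.0 and 304.0 TPM. None of these was called in any comparison.

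Counted by overlap alone, 13 of the 46 genes (28.3%) separated irradiated from unirradiated WT libraries, against 24.8% of all genes tested, and 23 of the 46 (50%) separated the KO libraries, against 24.3%. In 10 of the 46 genes (21.7%) the libraries separated in the same direction in both lines, against 9.49% of all genes, and no gene separated in opposite directions, against 0.419%. The 10 were *HSPA5*, *DNAJB11*, *EDEM1*, *PPP1R15A* and *MTHFD2*, which were higher, and *ATF4*, *DDIT4*, *CEBPB*, *SLC7A5* and *AARS*, which were lower. No gene of the 46 was called for a difference between the radiation changes of the lines by limma, and 0.0188% of all genes tested were. At an unadjusted p under 0.05 the difference was met by 4 of the 46 genes (*DDIT3*, *HERPUD1*, *CEBPB* and *PSAT1*), against 6.61% of all genes.

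**Figure D2:**
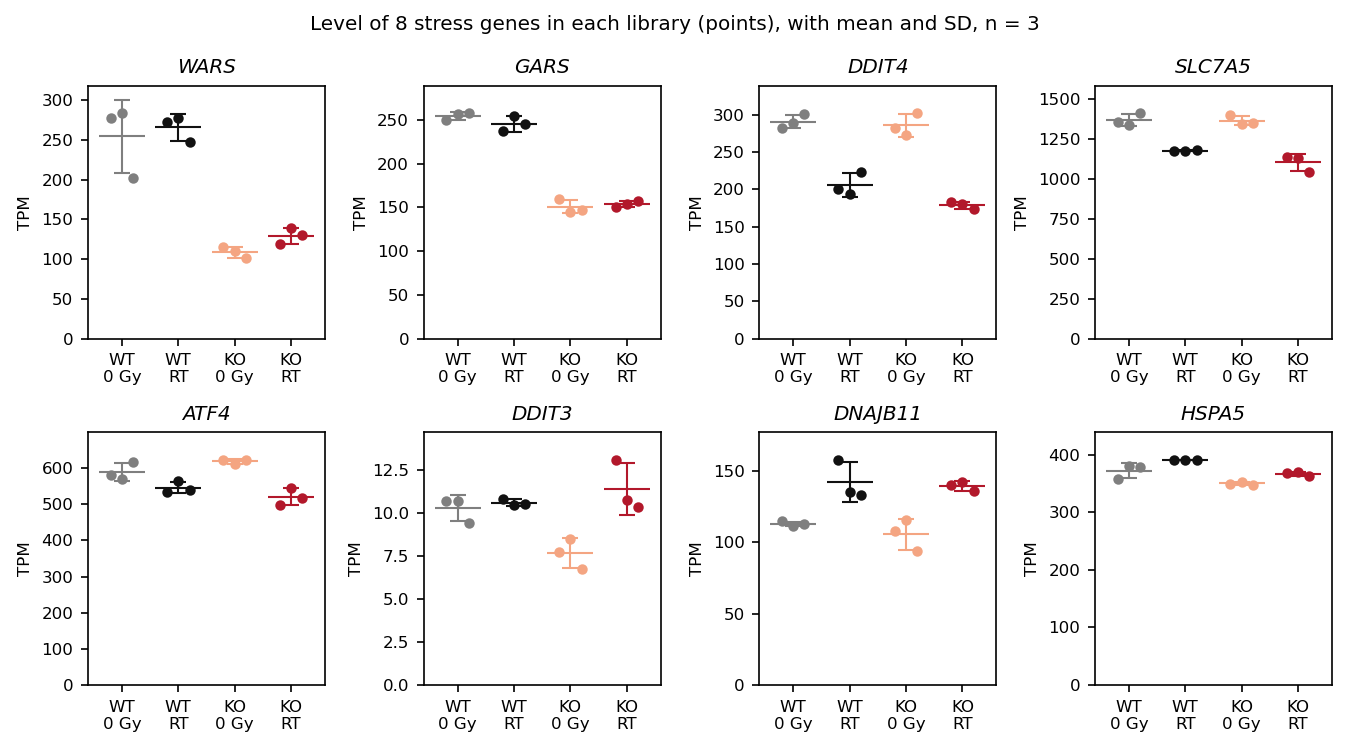
TPM of 8 of the genes in each library (points, y axis from 0), with the mean and SD of the 3 libraries of each group (WT or KO, 0 Gy or RT for 4 fractions of 2 Gy). *WARS* and *GARS* separate KO from WT libraries, *DDIT4* and *SLC7A5* separate irradiated from unirradiated libraries, and *HSPA5* stays between 347.6 and 391.4 TPM.

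Among the calls in the 46 genes, the largest differences between STING KO and WT cells were in a pair of tRNA synthetases. *WARS* and *GARS*, which charge tRNA with tryptophan and glycine, were the only genes of the 46 called in unirradiated cells, where 1.73% of all genes tested were called (2.43% of those with a mean of at least 100 TPM). They were also called in irradiated cells, where 5 of the 46 genes (10.9%) were called, all of them lower in KO cells. In either direction, 3.59% of all genes tested were called there, and 4.75% of those with a mean of at least 100 TPM. *WARS* and *GARS* were called under all 20 alternatives in both comparisons. Counted by overlap, 14 of the 46 genes separated KO from WT libraries without radiation, of which 11 were lower, against 20.6% of all genes tested, and 15 of the 46 with radiation, of which 12 were lower, against 24.1%.

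*WARS* lies at chr14:100333788-100376805 (minus strand) and measured 278.2, 283.8 and 201.5 TPM in unirradiated WT, 272.4, 278.1 and 246.8 TPM in irradiated WT, 114.7, 109.8 and 100.9 TPM in unirradiated KO and 119.2, 138.8 and 130.3 TPM in irradiated KO libraries. The KO libraries were below the WT libraries without overlap, by a wide gap. Means were 108.5 ± 7.0 against 254.5 ± 46 TPM without radiation (SD, n = 3) and 129.4 ± 9.8 against 265.8 ± 16.7 TPM with it. The log2 change was -1.21 ± 0.12 in unirradiated cells (limma adjusted p = 4.33e-04) and -1.03 ± 0.12 in irradiated cells (adjusted p = 8.37e-04). Radiation itself was not called for *WARS* in WT (0.08 ± 0.12, adjusted p = 0.798) or KO cells (0.25 ± 0.12, adjusted p = 0.304).

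*GARS* lies at chr7:30594681-30634033 (plus strand) and measured 249.5, 256.6 and 257.8 TPM in unirradiated WT, 236.9, 254.7 and 244.8 TPM in irradiated WT, 159.3, 145.2 and 147.2 TPM in unirradiated KO and 150.9, 153.4 and 157.2 TPM in irradiated KO libraries. The values within each line hardly moved with radiation, and the lines did not overlap. The KO change was -0.75 ± 0.05 without radiation (adjusted p = 8.07e-06) and -0.67 ± 0.05 with it (adjusted p = 1.56e-05). *GARS* overlaps its divergent transcript *GARS-DT* and *WARS* overlaps *WDR25*, each on the opposite strand.

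The other 5 synthetases of the list, *AARS*, *SARS*, *NARS*, *MARS* and *EPRS*, were not called, with KO changes from -0.17 (*NARS*) to 0.05 (*SARS*) in unirradiated and from -0.06 (*AARS*) to 0.07 (*EPRS*) in irradiated cells. *EPRS*, the bifunctional enzyme for glutamate and proline, was the most even, at 144.6 to 159.8 TPM over all libraries. A list of 16 further cytosolic genes, 13 for synthetases and 3 (*AIMP1*, *AIMP2* and *EEF1E1*) for scaffold proteins of the multisynthetase complex, gave no call in any comparison, nor did 17 mitochondrial synthetases. Their median KO changes in unirradiated cells were -0.04 and 0.04. In irradiated cells 9 of the 16 cytosolic genes were lower in every KO library than in every WT library, against 24.1% of all genes tested that did not overlap in either direction, and the median change of the 16 was -0.08. No synthetase was called after radiation in either line.

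The promoters of these synthetases were compared, since *WARS* is known as an interferon-inducible gene and *GARS* as an ATF4 target. The amino acid response element bound by ATF4 with a CEBP partner, searched as TGATGNAA on either strand, was present in 9 of the 43 genes (20.9%) and in 4 of the 7 synthetases (*AARS*, *GARS*, *NARS* and *MARS*), against 3.62% of all windows and 4.46% of all genes with a window. It was not found in the *WARS* windows. Elements of the interferon pathways, GAAANNGAAA and TTCNNNGAA, were added to the search after the values were seen. The first was found among the 43 genes only in *WARS* (3.57% of all windows and 4.38% of genes) and the second in *WARS* and *SLC3A2* (7.66% of all windows and 9.38% of genes). The window of the upstream *WARS* start site (chr14:100376278-100376577) holds neither interferon element and is not printed. A gene-level TPM does not separate the start sites. The sites in *GARS* and *ASNS* are shown with the amino acid response element in capitals, and *WARS* is shown as the whole 300-base window of its downstream start site, from 250 bases before to 50 bases after it, with both interferon elements in capitals.
GARS, chr7:30594835-30594862, minus strand: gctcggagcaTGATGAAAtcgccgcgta
ASNS, chr7:97872459-97872486, minus strand: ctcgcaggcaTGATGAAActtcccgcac
WARS, chr14:100375298-100375597, minus strand: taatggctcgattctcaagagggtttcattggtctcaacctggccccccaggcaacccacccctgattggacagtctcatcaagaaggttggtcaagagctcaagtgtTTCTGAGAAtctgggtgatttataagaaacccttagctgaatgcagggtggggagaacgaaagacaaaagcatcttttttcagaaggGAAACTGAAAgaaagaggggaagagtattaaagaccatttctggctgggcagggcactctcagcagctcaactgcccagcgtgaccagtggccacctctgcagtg

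A match of letters is a description of the window and was not tested against the expression values. Of the 9 genes with TGATGNAA, *GARS* was called lower in KO cells in both comparisons and *SLC7A1* in irradiated cells. Of all genes tested, 1.73% were called without radiation and 3.59% with it. *WARS*, *TRIB3* and *PSAT1*, without this element in their windows, were also called lower in irradiated KO cells, and *WARS* in unirradiated ones. The KO changes of the other genes with TGATGNAA in unirradiated cells were -0.39 (*CHAC1*), -0.29 (*SLC3A2*), -0.21 (*HERPUD1*), -0.18 (*ASNS*), -0.17 (*NARS*), -0.04 (*MARS*) and 0.01 (*AARS*), none of them called. In irradiated cells they were -0.30 (*CHAC1*), -0.09 (*SLC3A2*), 0.76 (*HERPUD1*), -0.22 (*ASNS*), -0.03 (*NARS*), 0.02 (*MARS*) and -0.06 (*AARS*), again without a call.

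The interferon-induced genes *TAP1*, *PSMB9* and *ISG15* were lower in the same KO libraries. *TAP1* and *PSMB9*, of antigen processing, had KO changes of -0.57 ± 0.08 (adjusted p = 0.00422) and -0.65 ± 0.08 (adjusted p = 0.00195) without radiation and of -0.80 ± 0.08 (adjusted p = 2.38e-04) and -0.90 ± 0.08 (adjusted p = 1.18e-04) with it. *IRF1* was called with radiation (-0.73 ± 0.16, adjusted p = 0.0376) and not without it (-0.60 ± 0.16, adjusted p = 0.116). *GBP1* was not called without (-0.29 ± 0.08, adjusted p = 0.133) or with radiation (-0.33 ± 0.08, adjusted p = 0.0577), and *GBP2* was at -0.05 ± 0.21 (adjusted p = 0.951) and 0.15 ± 0.21 (adjusted p = 0.766). *ISG15*, a ubiquitin-like modifier, measured 334.2, 384.0 and 295.4 TPM in unirradiated WT libraries 1, 2 and 3 and 62.9 to 71.9 TPM in all KO libraries. Among the unirradiated WT libraries, library 3 was the lowest for *ISG15* and for *WARS*. This shared order was not tested and is not given for the other interferon-induced genes. *ISG15* rose with radiation in WT cells (0.70, adjusted p = 0.00188), where the *WARS* change was 0.08. The part of interferon-induced transcription in the *WARS* difference was not tested.

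**Figure D3:**
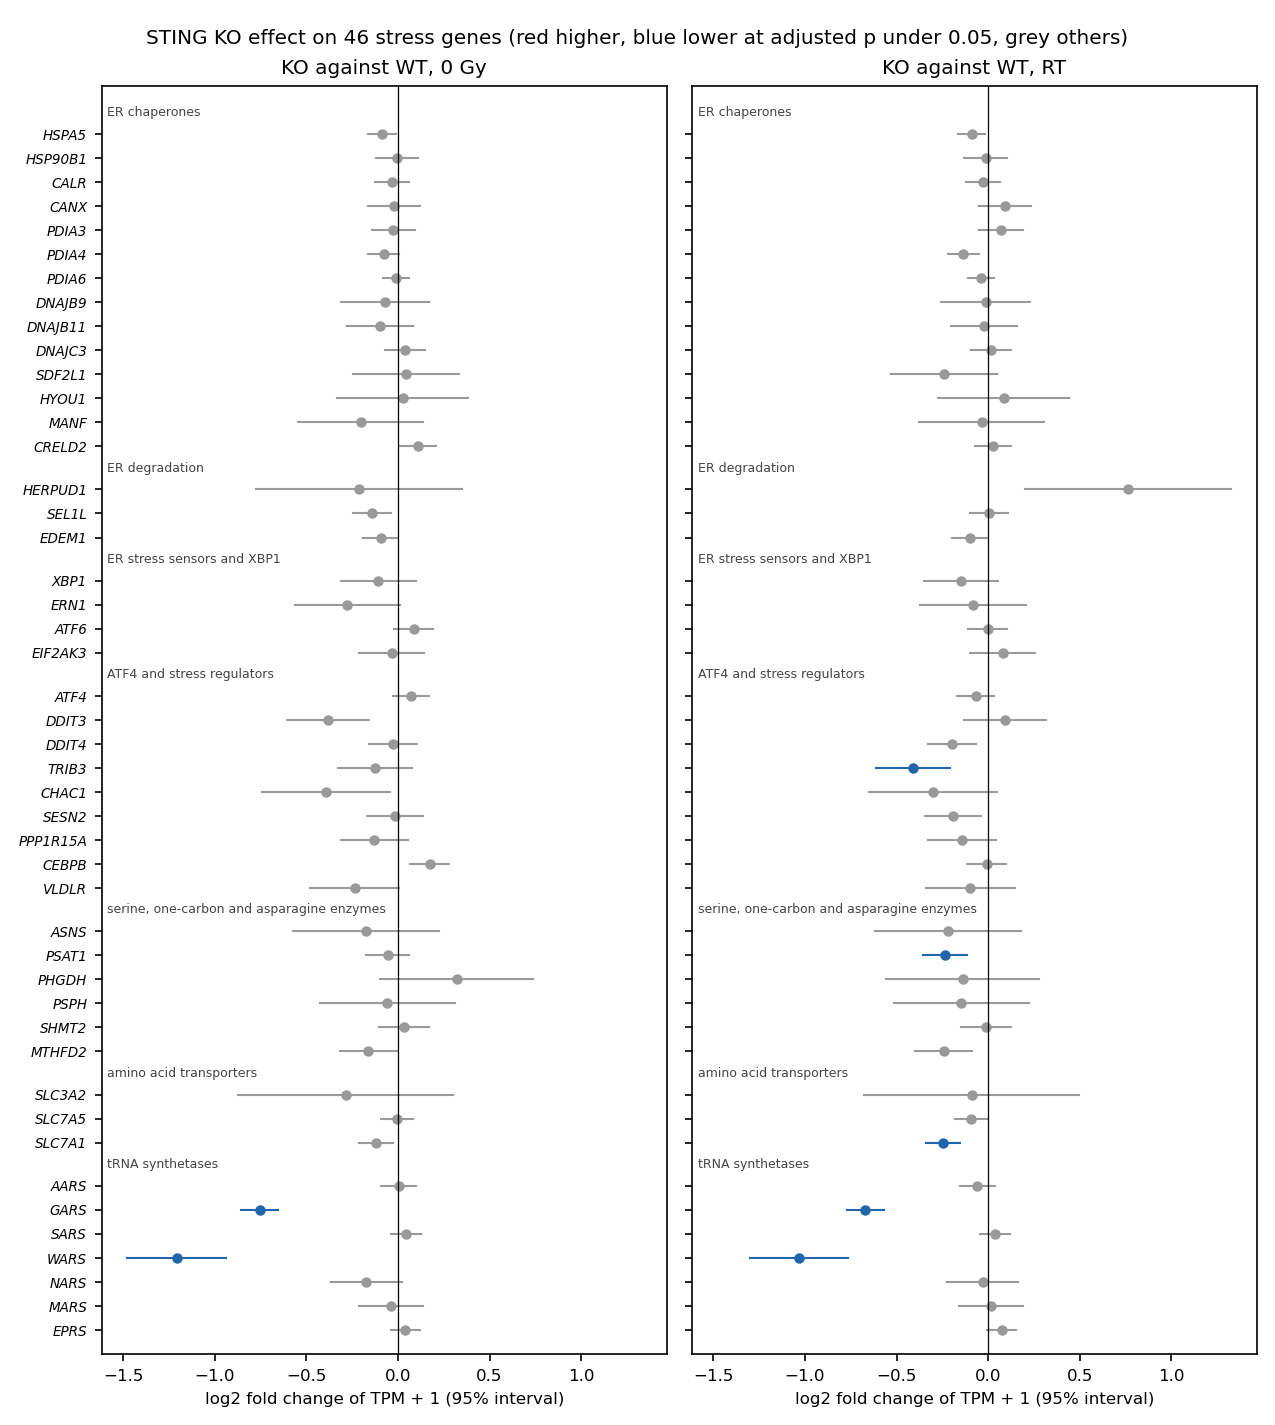
Log2 fold change of TPM + 1 in STING KO against STING WT cells for each of the 46 genes by role, without radiation (left) and after it (right), as the limma estimate (point) with its 95% interval (line); blue marks genes called lower. *WARS* and *GARS* stand below all other genes in both panels.

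After radiation, *TRIB3*, *SLC7A1* and *PSAT1* were also called lower in KO than in WT cells. *SLC7A1* (CAT1), the importer of arginine and lysine, measured 136.7, 140.9 and 145.8 TPM in unirradiated WT, 144.0, 147.5 and 145.6 TPM in irradiated WT, 132.7, 129.0 and 127.4 TPM in unirradiated KO and 125.0, 125.6 and 117.9 TPM in irradiated KO libraries. All KO libraries were below all WT libraries. The change was -0.24 ± 0.04 with radiation (adjusted p = 0.00957) and -0.12 ± 0.04 without it (adjusted p = 0.212, not called). The call with radiation was lost in a fit to only the irradiated libraries (limma adjusted p = 0.0728).

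*TRIB3*, a pseudokinase that feeds back on ATF4, measured 19.0, 23.8 and 21.9 TPM in unirradiated WT, 24.1, 23.9 and 22.3 TPM in irradiated WT, 19.6, 19.1 and 20.1 TPM in unirradiated KO and 18.8, 18.1 and 15.4 TPM in irradiated KO libraries. The irradiated KO libraries were below every other library. The change of -0.41 ± 0.09 (adjusted p = 0.0357) lost its call in 12 of 20 alternatives, which include leaving out any one of the irradiated WT libraries, any one of the unirradiated KO libraries, unirradiated WT library 3 or irradiated KO library 2 or 3.

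**Figure D4:**
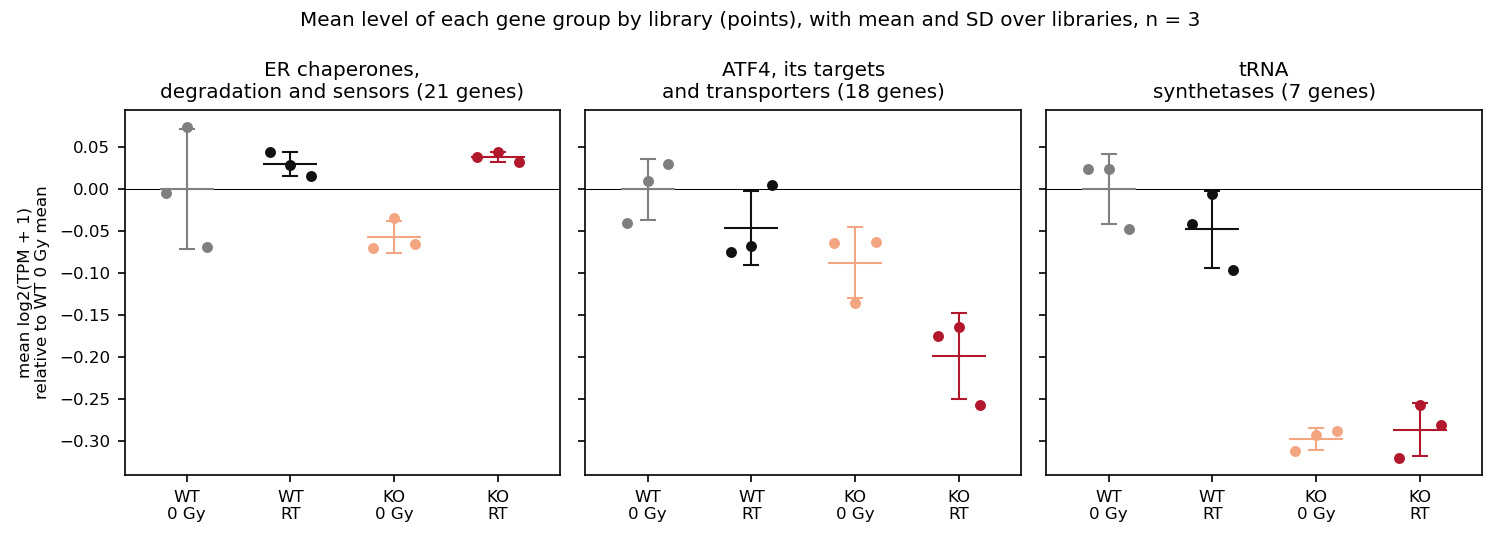
Mean log2(TPM + 1) of the ER genes (21), the ATF4 group (18) and the tRNA synthetases (7) in each library, relative to the unirradiated WT mean, with the mean and SD of the 3 libraries of a group. The synthetase mean is about 0.3 lower in KO libraries, with *WARS* and *GARS* the called members. The median KO change of the 7 synthetases was only -0.04 without radiation and -0.03 with it. The ATF4 group is lowest in irradiated KO libraries.

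Calls in the wider pathway lists after radiation are read against 3.74% of all genes in WT and 3.69% in KO cells. Of 31 other ER folding and export genes, *SRPRB*, a subunit of the signal recognition particle receptor, rose with radiation in WT cells (0.29 ± 0.06, adjusted p = 0.0263). That call was lost without any one of the WT libraries and with only the libraries compared. None of the 31 was called in KO cells. Of 14 other tested ER degradation genes, *SELENOS* rose in WT cells (0.21 ± 0.05, adjusted p = 0.0451), a call lost in 17 of 20 alternatives. Of 27 other tested ATF4-pathway genes, *SLC7A11* (xCT), the cystine importer, fell with radiation in both lines and *GDF15* rose in WT cells (0.36 ± 0.08, adjusted p = 0.0437), a call lost in 16 of 20 alternatives.

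*SLC7A11* was lower both with radiation and with STING loss. It measured 28.8, 30.2 and 27.2 TPM in unirradiated WT, 19.8, 20.1 and 21.1 TPM in irradiated WT, 21.9, 22.2 and 22.5 TPM in unirradiated KO and 14.4, 16.6 and 16.3 TPM in irradiated KO libraries. The irradiated KO libraries were the lowest, and the unirradiated WT libraries the highest, each without overlap with the others. The radiation change was -0.48 ± 0.06 in WT (adjusted p = 0.00325) and -0.47 ± 0.06 in KO cells (adjusted p = 0.00372), and the lines differed by 0.01 (adjusted p = 0.995). The KO change was -0.36 ± 0.06 without radiation (adjusted p = 0.0189) and -0.35 ± 0.06 with it (adjusted p = 0.0149). The first call was lost without unirradiated WT library 1 or 2 or any one of the unirradiated KO libraries, and the second without irradiated WT library 2 or 3. Both KO calls were also lost in fits to only the libraries compared.

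Between KO and WT cells, 2 of the 27 ATF4-pathway genes were called without radiation (7.41%, against 1.73% of all genes) and 3 with it (11.1%, against 3.59%), all lower in KO cells. The wider lists were also chosen with earlier results of these data known, so these shares are descriptions. Beside *SLC7A11*, *STC2*, a secreted glycoprotein induced by ATF4, was lower without radiation (-0.35 ± 0.06, adjusted p = 0.0118) and with it (-0.45 ± 0.06, adjusted p = 0.00178). The first *STC2* call was lost without library 2 or 3 of either unirradiated group and with only the libraries compared. *VEGFA* was lower with radiation (-0.55 ± 0.12, adjusted p = 0.0331), a call lost in 7 of 20 alternatives. These were no filter on low values, the replicate block, and leaving out any one of the irradiated WT libraries or irradiated KO library 1 or 3. Of 10 genes for the other eIF2 kinases and the eIF2 machinery, *EIF2AK2* (PKR), the double-stranded RNA sensor that phosphorylates eIF2 and is itself interferon-induced, was the single call in each KO comparison (10% of the list, against the same shares of all genes). It averaged 43.7 against 56.8 TPM without radiation (-0.37 ± 0.05, adjusted p = 0.00346) and 43.4 against 64.4 TPM with it (-0.56 ± 0.05, adjusted p = 1.13e-04). The call without radiation was lost in a fit to only the unirradiated libraries (limma adjusted p = 0.0677).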

How the data were processed

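Groups were taken from the sample labels. The authors deposited one table of TPM values for genes by libraries, from paired-end sequencing of polyadenylated RNA. Per the labels, the submitters' processing notes name HISAT2, StringTie, DESeq2 and build hg38, and the annotation and strand setting are not given in the sources used here. TPM keeps no depth, so precision comes from the 3 libraries per group. Genes reaching a TPM of 1 in no fewer than 3 of the 12 libraries were tested on log2(TPM + 1) with limma 3.58.1 in R 4.3.3 (4 group means, eBayes with trend, 8 residual degrees of freedom, Benjamini-Hochberg over 15973 genes), and the code was tested on simulated data. A count model could not be used on TPM. No sequencing batch is labelled.

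The members and lists were chosen with earlier results of these data known. Named with every library's value were members called in any comparison (at most 6 per role), the lowest adjusted p of a role without a call, and HSPA5, ATF4, DDIT3 and ASNS, the last by its range and 1 group. HERPUD1 was added after its values were seen. Up to 3 called genes per wider list and comparison were named. Gene positions are from GENCODE 29 (GRCh38) and promoters from RefSeq (GRCh38.p14). Alternatives were quantile normalization or median-of-ratios factors, a pseudocount of 0.1, no filter or a filter at a mean TPM of 5, a replicate block, no trend in eBayes, only the 6 libraries compared, and each library left out in turn. The result of 1 further gene is not reported here. The deposited columns carry guide names and not the genotype words of the labels. Those named for a non-targeting guide were read as STING WT and the remaining line as STING KO, with radiation and library number taken from the column names. No label pairs the guide names with the genotypes. The assignment was also compared with a supplementary table of the study, which gives these values relative to the unirradiated WT mean under genotype names, so it rests in part on matched values.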

Additional observations from a re-analysis of the deposited data

How the results depend on the processing

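The calls for *WARS*, *GARS* and *DDIT4* held under all 20 alternatives, and no called result changed sign. Changes of sign were seen in 3 values that were not called: *DDIT3* radiation in WT cells (-0.01 without unirradiated WT library 3), *DDIT3* KO in irradiated cells (-0.01 without irradiated KO library 1) and *ASNS* radiation in KO cells (0.04 without irradiated KO library 3). For the radiation effect in WT cells, 2 genes of the 46 were called, and 1 with no filter on low values, without the trend or with only the libraries compared, and leaving out 1 library each gave 1 to 3, the lowest without unirradiated WT library 3 or any irradiated WT library. For radiation in KO cells, 8 became 1 with only the libraries compared and 3 to 7 without 1 library, the lowest without unirradiated KO library 1 or 3. For the KO effect in irradiated cells, 5 became 3 with no filter, with the replicate block or with only the libraries compared, and 3 to 5 without 1 library, the lowest without any one of the irradiated WT or unirradiated KO libraries or irradiated KO library 2 or 3. With only the libraries compared, *TRIB3*, *SLC7A1* and *PSAT1* all lost their calls and *HERPUD1* gained one. The cause of these changes was not tested. The KO effect in unirradiated cells stayed at 2, and the difference between radiation effects at 0. Over all genes, the 597, 590, 276 and 573 calls became 166, 195, 103 and 252 with only the libraries compared, where fewer libraries estimate the spread, and 315, 359, 211 and 378 with the replicate block.

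Same-numbered libraries did not deviate together (0 of 18 pairs had a correlation over 0.1, range -0.06 to 0.06), so the numbers were not used to pair them, and with the replicate block 2, 6, 2 and 3 of the 46 genes were called. Other scalings moved the median of all genes by at most 0.04. Read depth behind the TPM values, strand assignment at overlapping genes, and protein or ATF4 translation levels limit what the values show.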

Other observations

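Some cytosolic heat shock genes, which answer to the heat shock factor rather than to the ER sensors, fell with radiation in both lines. Of a list of 15 genes for cytosolic and mitochondrial chaperones and their factor HSF1, 3 were called lower in WT and 3 in KO cells (20% of the list, against 3.74% and 3.69% of all genes tested). The median change of the list was -0.04 in WT and -0.01 in KO cells, and the other members, *HSPA8*, *HSP90AA1* and *HSP90AB1* among them, were not called. *HSPB1* (HSP27), a small heat shock protein, averaged 622.2 TPM in unirradiated and 515.0 TPM in irradiated WT cells (-0.27 ± 0.05, limma adjusted p = 0.0158; lost without unirradiated WT library 1 or irradiated WT library 1 or 2), and 669.6 against 534.3 TPM in KO cells (-0.32 ± 0.05, adjusted p = 0.00623). *HSPA1B* (HSP70) changed by -0.31 ± 0.04 in each line (adjusted p = 0.00353 in WT and 0.00394 in KO). *HSPA1A* changed by -0.27 ± 0.05 (adjusted p = 0.0154) and -0.29 ± 0.05 (adjusted p = 0.00964), but it and *HSPA1B* are near-identical copies, so reads may have been split between them. The WT call of *HSPA1A* was lost without library 1 or 2 of either WT group. With only the libraries compared, the calls of *HSPA1A* and *HSPA1B* in WT cells and of *HSPB1* in KO cells were lost. In irradiated and unirradiated libraries these 3 genes did not overlap in either line.

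*HSF1*, the transcription factor that drives them, had a lower level in irradiated KO than in irradiated WT cells (57.3 against 73.6 TPM, -0.36 ± 0.07, adjusted p = 0.0258), a call lost in 6 of 20 alternatives, among them leaving out any one of the irradiated WT libraries or irradiated KO library 3. Without radiation its KO change was -0.12 ± 0.07 (adjusted p = 0.533). The heat shock genes themselves were not called between KO and WT cells, with changes from 0.05 to 0.10.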
